A study of Mus musculus with 24 samples.

Results

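Annexins, S100 proteins and galectins were followed in mouse cortex after stroke through 10 genes chosen by symbol, Anxa1, Anxa2, Anxa3, Anxa5, S100a6, S100a10, S100a11, Lgals1, Lgals3 and Emp1, out of 14769 gene symbols listed in any of 4 expression tables. Total RNA was sequenced from 24 cortex samples after transient middle cerebral artery occlusion (tMCAo), a surgery in which a filament blocks the artery for 1 h and is then withdrawn, with 1 day of reperfusion. The animals were male and 3 to 4 months old. All of them, wild type included, carry the strain label C57BL/6N-Cdr1asem1Nikr, which names a mutant line of Cdr1as (ciRS-7). There were 4 groups of 6 libraries: CL and PI cortex of wild-type (WT) animals, and CL and PI cortex of ciRS-7 knockout (KO) animals. Each animal gave a CL and a PI library. The labels do not spell out CL and PI, so these names are used as given, and every animal had the surgery, so no group came from unoperated cortex. The tables compare PI with CL within WT (14489 genes) and within KO (14338 genes), and KO with WT within PI (14452 genes) and within CL (14323 genes). They listed 9, 9, 10 and 8 of the 10 genes in that order, and 8 were in all 4 tables. Lgals3 was listed only in the comparison of PI KO with PI WT, and S100a11 was not listed in that of CL KO with CL WT.

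Annexins bind acidic phospholipids in the presence of calcium and gather at damaged plasma membrane, where they help to seal it. S100 proteins are small calcium-binding proteins, several of which work as partners of an annexin: S100a10 joins Anxa2 in a complex that binds plasminogen at the cell surface, and S100a11 binds Anxa1. Galectins are lectins that bind galactose-containing sugars on the cell surface, and Emp1 is a membrane protein of the PMP22 family. In injured brain these genes are known from reactive astrocytes, microglia, infiltrating leukocytes and vascular and meningeal cells. In bulk cortex, more cells of a type and more RNA per cell cannot be told apart.

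Effective depth, read from the steps between low values, was 5268500 to 10491500 reads a library. In 100% of genes the lowest 2 values of a group were tied, as were the highest 2: extreme values had been pulled in to the group's quartiles before deposit. Means, errors and tests therefore rest on the 4 inner values of each group of 6, which could be recovered (a trimmed mean), while the lowest and highest values are given as deposited. The true lowest and highest library of a group are thus not known, and statements on overlap below are about the deposited values. CL KO library 6 was at a tied end in up to 89.5% of genes and PI WT library 4 in up to 80.7%, more than the other libraries. Cdr1as, the targeted gene, was between 11.35 and 11.89 log2 CPM in WT and between -9.97 and -2.59 in KO libraries. All 14 neuronal, 10 astrocyte and 10 oligodendrocyte markers were listed, as the cortex label calls for, against 1 of 10 choroid plexus markers. P-values of the trimmed-mean test set a difference against the spread between libraries within groups. They do not use the pairing of CL and PI libraries by animal.

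The start-site sequences of Emp1, S100a11 and Anxa2 are shown first, because each holds the AP-1 motif TGANTCA, the site of FOS and JUN factors. They are also the genes of the set with the widest PI minus CL differences in WT (S100a11 was not called in KO and was listed only in tables that hold PI libraries). A part of these factors in the differences was not tested. The windows run from 250 bases before to 50 bases after the RefSeq start (GRCm38.p6), 5′ to 3′ on the strand of the gene, with each AP-1 match in capitals. Emp1 lies at chr6:135362681-135362980 (+), S100a11 at chr3:93520246-93520545 (+) and Anxa2 at chr9:69453433-69453732 (+).
Emp1: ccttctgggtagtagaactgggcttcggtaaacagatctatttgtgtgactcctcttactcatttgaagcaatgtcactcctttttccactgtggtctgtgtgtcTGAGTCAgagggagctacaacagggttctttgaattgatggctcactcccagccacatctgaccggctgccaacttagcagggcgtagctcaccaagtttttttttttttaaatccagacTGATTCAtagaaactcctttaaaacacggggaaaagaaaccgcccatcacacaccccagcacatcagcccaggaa
S100a11: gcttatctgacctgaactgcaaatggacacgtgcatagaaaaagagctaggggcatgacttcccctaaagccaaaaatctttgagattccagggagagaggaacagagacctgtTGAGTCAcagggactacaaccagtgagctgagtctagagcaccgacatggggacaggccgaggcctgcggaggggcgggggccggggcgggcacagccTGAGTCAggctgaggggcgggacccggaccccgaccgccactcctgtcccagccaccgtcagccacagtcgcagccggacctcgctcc
Anxa2: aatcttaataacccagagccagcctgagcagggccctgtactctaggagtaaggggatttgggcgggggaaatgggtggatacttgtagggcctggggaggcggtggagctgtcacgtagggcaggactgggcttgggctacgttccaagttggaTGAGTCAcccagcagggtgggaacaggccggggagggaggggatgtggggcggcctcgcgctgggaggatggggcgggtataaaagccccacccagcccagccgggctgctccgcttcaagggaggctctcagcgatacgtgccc
The matches begin at bases -145 and -25 from the start in Emp1, at -136 and -38 in S100a11 and at -95 in Anxa2. The motif reads the same on both strands. It was found in 7.8% of the 32851 RefSeq windows of this length and in 3 of the 8 windows of the set. Those 8 windows belong to 7 genes, of which 3 hold a match, and Emp1 has a further window without one. Of the other motifs searched on both strands, the STAT site TTCNNNGAA was in Emp1 and in 8.3% of windows, the TEAD site GGAATG in Anxa1 and in 14.7%, and the serum response factor CArG box in Anxa5 and in 1.6%. A match describes the letters of a window and not the use of a site. Anxa3, S100a10 and Lgals1 had no window.

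ciRS-7 is a circular RNA known for binding the microRNA miR-7, so the 3′ UTRs were searched for its seed match. The mature sequence is printed from RefSeq (GRCm38.p6) with the seed, bases 2 to 8, in capitals, and the Emp1 site from GENCODE M21 with the match to that seed in capitals.
mmu-miR-7a-5p: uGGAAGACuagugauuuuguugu
Emp1 3′ UTR site: cacacactgagGTCTTCCacatccatatt
The Emp1 match is at chr6:135381511-135381517 (GRCm38, + strand), in the last exon. The letters GTCTTCC were in the 3′ UTR of 12.7% of 21022 genes with an annotated 3′ UTR, and in 1 of the 10 genes studied. The others, Anxa1, Anxa2, Anxa3, Anxa5, S100a6, S100a10, S100a11, Lgals1 and Lgals3, did not hold them.

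The first question was how these genes differed between PI and CL cortex. In WT animals, Emp1, S100a11, Anxa2 and Anxa3 rose in PI cortex, by 3.76-fold, 4.53-fold, 2.37-fold and 1.57-fold. In KO animals, Emp1, Anxa2, Lgals1, S100a6, Anxa3 and S100a10 rose, by between 1.38-fold and 3.54-fold. None of the genes fell in either genotype. The calls were 4 of 9 in WT, where 10.6% of all genes passed the test (5.2% as higher), and 6 of 9 in KO, where 10% passed (5.11% as higher). Anxa2, Anxa3 and Emp1 were called in both genotypes, and Anxa1 and Anxa5 in neither. The median log2 difference of the 9 genes was 0.69 in WT and 0.73 in KO, against 0.01 and -0.00 over all genes. The deposited values of PI and CL libraries did not overlap for 7 of the 9 genes in each genotype, as for 32.8% of all genes in WT and 34.3% in KO. The genes were chosen with earlier results of these data known. The counts and medians beside those of all genes are therefore a description, and not evidence that such genes respond more than others. The test was a moderated trimmed-mean test built on limma's empirical Bayes step, two-sided, with Benjamini-Hochberg adjustment over all genes of the table and a threshold of 0.05.

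**Figure D1:**
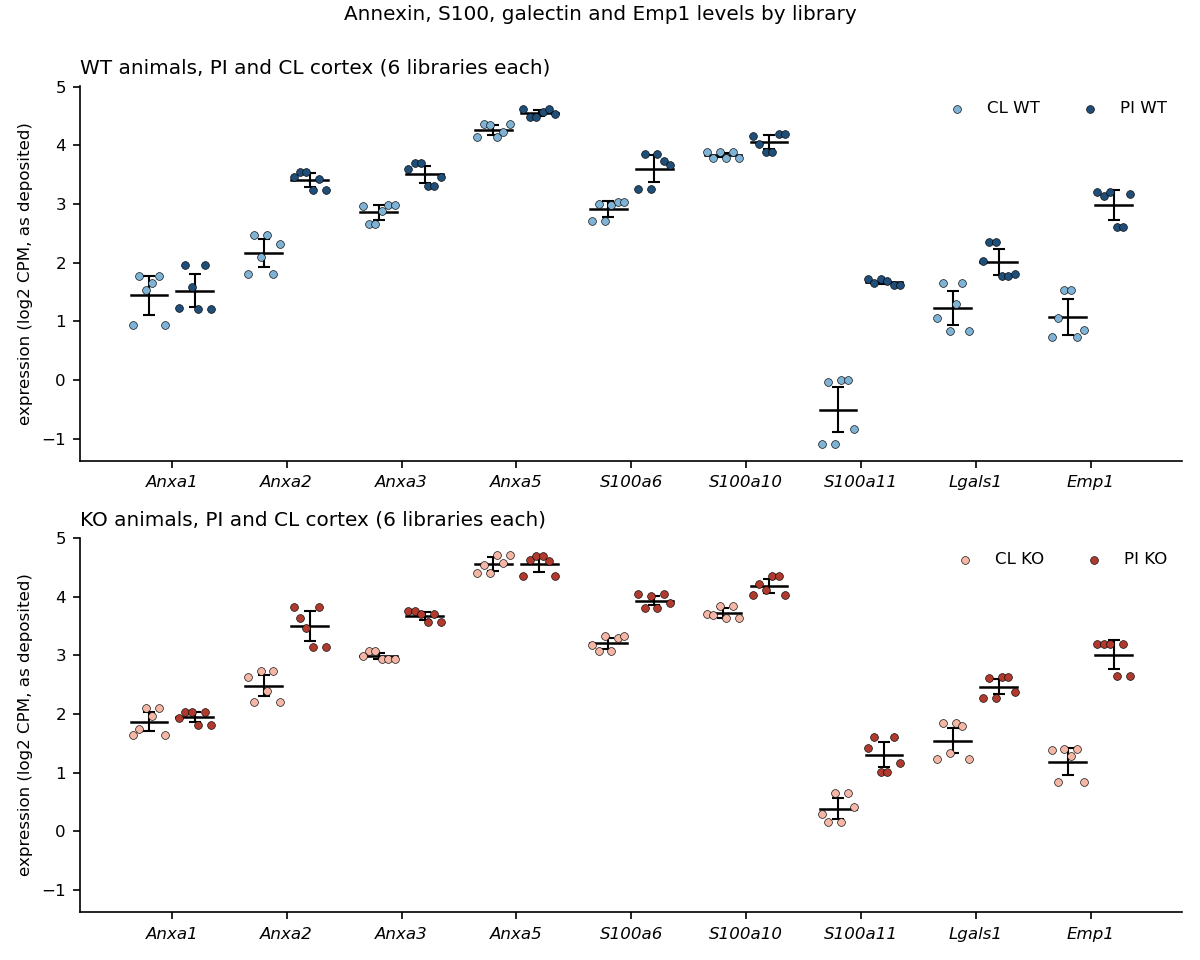
Expression (log2 CPM as deposited, vertical axis) of the 9 genes listed in both PI against CL tables, in WT animals (upper panel) and KO animals (lower panel), with 1 point a library, 6 a group. Bars are trimmed means and whiskers their standard errors. The deposited values of Emp1 and Anxa2 do not overlap between PI and CL in either panel, and those of Anxa1 overlap in both.

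Among the annexins, Anxa2 moved most. Anxa2 (chr9:69453620-69491795), a calcium-dependent membrane organiser that recruits plasminogen activator to the cell surface, had a lowest, median and highest value of 1.81, 2.21 and 2.47 log2 CPM in CL WT and of 3.23, 3.44 and 3.55 in PI WT. In KO animals the values were 2.21, 2.52 and 2.73 in CL and 3.14, 3.55 and 3.83 in PI. The deposited PI and CL values did not overlap in either genotype. The log2 difference was 1.25 (SE 0.21, adjusted p 0.00271) in WT and 1.02 (SE 0.24, adjusted p 0.02) in KO. The KO call was lost without PI KO library 2 (adjusted p 0.0615), CL KO library 2 (0.0506) or CL KO library 4 (0.054). An antisense gene, Gm16144, overlaps an exon of Anxa2, and whether the counting used strand is not given in the sources used here.

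Anxa3 (chr5:96793339-96845966), an annexin abundant in neutrophils, was at 2.66, 2.92 and 2.98 log2 CPM in CL WT and at 3.30, 3.53 and 3.69 in PI WT. The KO values were closer together, at 2.94, 2.97 and 3.07 in CL and 3.57, 3.70 and 3.75 in PI. Again the deposited PI and CL values did not overlap. The difference was 0.65 (SE 0.16, adjusted p 0.0225) in WT and 0.68 (SE 0.12, adjusted p 0.00366) in KO. Leaving out PI WT library 1 or 3 took the WT call to an adjusted p of 0.0554 or 0.058.

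Anxa5 (chr3:36448923-36475894), which binds phosphatidylserine on dying cells, and Anxa1 (chr19:20373428-20390944), a glucocorticoid-induced ligand of formyl peptide receptors, were not called. Anxa5 values were 4.14, 4.29 and 4.37 log2 CPM in CL WT, 4.49, 4.55 and 4.61 in PI WT, 4.41, 4.56 and 4.72 in CL KO and 4.36, 4.62 and 4.69 in PI KO. The deposited values were apart in WT, where the difference was 0.28 (SE 0.10, adjusted p 0.0801), and overlapped in KO, where it was -0.01 (95% interval -0.32 to 0.30). Anxa1 values overlapped between PI and CL in both genotypes, with a range of 0.94 to 1.96 over the 12 WT libraries and of 1.64 to 2.11 over the 12 KO libraries. Its difference was 0.08 (95% interval -0.67 to 0.83) in WT, an interval that still holds a change of the size seen for Anxa3 (0.65), and 0.07 (-0.37 to 0.52) in KO, an interval that does not hold the 0.68 of Anxa3. Anxa1 overlaps the opposite-strand gene 1500015L24Rik, and Anxa3 a same-strand transcript, Gm42603.

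The 3 S100 genes lie on the same chromosome. S100a11 (chr3:93520488-93526287), which binds Anxa1 and actin, was near the detection limit in CL WT, at -1.09, -0.44 and 0.00 log2 CPM, and at 1.62, 1.67 and 1.72 in PI WT. The KO libraries were at 0.16, 0.36 and 0.65 in CL and at 1.01, 1.29 and 1.61 in PI. The deposited PI and CL values were apart in both genotypes, and the CL values of the WT animals were spread more widely than the other groups. The difference was 2.18 (SE 0.38, adjusted p 0.00271) in WT and 0.91 (SE 0.31, adjusted p 0.0864) in KO. S100a11 was listed in the tables that hold PI libraries and not in that of CL KO with CL WT. Its listing may thus depend on its higher PI values, which limits what this test can show. Of the 4 recovered CL WT values of S100a11, 1 was 0.443 CPM, under the 0.515 CPM that 3 reads make in the shallowest library of that group, and the CL WT median was worth about 5.2 reads. The WT call held without each of the 12 libraries in turn (1.96 to 2.35). A processed pseudogene, S100a11-ps, may share its reads.

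S100a6 (chr3:90612882-90624181), or calcyclin, was at 2.71, 2.99 and 3.03 log2 CPM in CL WT and at 3.26, 3.70 and 3.85 in PI WT. KO libraries were at 3.07, 3.23 and 3.33 in CL and at 3.81, 3.95 and 4.04 in PI. The deposited values did not overlap in either genotype. The difference of 0.69 (SE 0.21) in WT missed the threshold at an adjusted p of 0.0505, and that of 0.73 (SE 0.13) in KO passed it at 0.00363. The WT difference passed without PI WT library 1 (adjusted p 0.00524) or 3 (0.00618), with genes of low mean removed (0.0459) and on the log2(CPM + 1) scale (0.0497). With the animal as a block, on the drawn-in values, its adjusted p was 1.45e-05.

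S100a10 (chr3:93555080-93564643), the Anxa2 partner, moved least of the S100 genes. It was at 3.78, 3.83 and 3.88 log2 CPM in CL WT, 3.88, 4.10 and 4.19 in PI WT, 3.63, 3.69 and 3.84 in CL KO and 4.03, 4.16 and 4.36 in PI KO. The deposited values overlapped in WT and did not in KO. The difference was 0.22 (SE 0.11, adjusted p 0.262) in WT and 0.46 (SE 0.13, adjusted p 0.0425) in KO. The KO call was lost in 8 of 12 fits that left out a library (PI KO 2, 3, 4 and 5, CL KO 1, 2, 4 and 6), with adjusted p from 0.0669 to 0.0974, and with groups centred on their median gene (0.0545).

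Lgals1 (chr15:78926725-78930465), galectin-1, was at 0.84, 1.17 and 1.65 log2 CPM in CL WT and at 1.77, 1.91 and 2.35 in PI WT. KO libraries were at 1.23, 1.57 and 1.84 in CL and at 2.28, 2.49 and 2.63 in PI. The deposited PI and CL values did not overlap in either genotype, though in WT the recovered inner values did, with the lowest of PI at 1.76 and the highest of CL at 1.77. The difference was 0.79 (SE 0.30, adjusted p 0.127) in WT and 0.92 (SE 0.23, adjusted p 0.0254) in KO. The KO call was lost in 5 of 12 fits without a library (PI KO 2, 4 and 5, CL KO 1 and 3), with adjusted p from 0.0504 to 0.0708. The pseudogenes Lgals1-ps1 and Lgals1-ps2 may share its reads. Lgals3 (chr14:47367751-47386160), galectin-3, a marker of activated microglia and macrophages, was not in either PI against CL table.

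Emp1 (chr6:135362545-135383173), named for epithelial membranes and induced in reactive astrocytes, was at 0.74, 0.95 and 1.54 log2 CPM in CL WT and at 2.60, 3.15 and 3.20 in PI WT. In KO it was at 0.84, 1.33 and 1.40 in CL and at 2.65, 3.19 and 3.20 in PI. The deposited PI values lay above the CL values in each genotype, with a gap wider than the deposited range of either group. The difference was 1.91 (SE 0.31, adjusted p 0.00186) in WT and 1.82 (SE 0.27, adjusted p 0.00138) in KO. Both calls held without each of the 12 libraries in turn, over 1.78 to 2.12 in WT and 1.66 to 2.0 in KO.

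**Figure D2:**
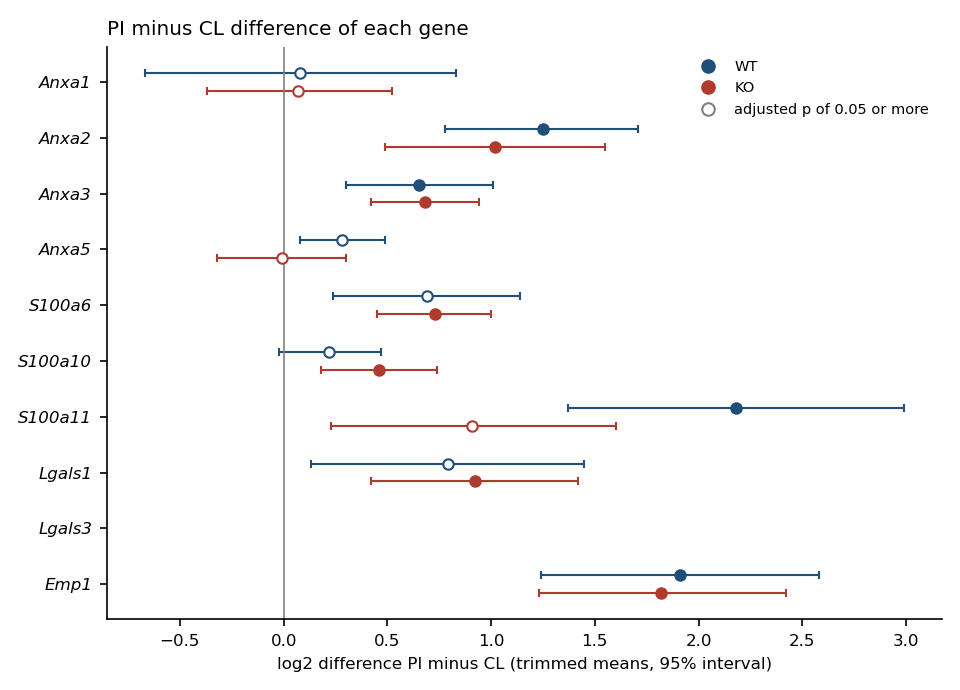
Log2 difference PI minus CL (horizontal axis) of each gene with its 95% interval, in WT and KO animals; filled points have an adjusted p under 0.05. Emp1 is at 1.91 and 1.82, S100a11 at 2.18 and 0.91, Anxa1 and Anxa5 are near 0 in KO, and Lgals3 has no row in these tables.

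How many of the genes passed depended on the test and, in KO, on single libraries. Limma was also run on the values as deposited, whose spread is too small because they were drawn in. It called 44.6% of all genes in WT and 46.5% in KO (45.6% and 47.1% with the animal as a block). Of the set it called 8 of 9 in WT and 7 of 9 in KO, with or without the block. The genes added were S100a6, Anxa5 (adjusted p 0.0027 with the block), S100a10 (0.00875) and Lgals1 (0.00274) in WT and S100a11 (0.00116) in KO. The block could not be fitted in the trimmed-mean test. Without PI KO library 2 the KO count fell to 3 of 9, and it was also 3 with a prior variance that did not follow the mean. In WT the count was 4 without each library in turn, with 7.71% to 10.1% of all genes called.

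Relatives of the set gave a mixed picture. Of 4 other annexins listed (Anxa4, Anxa6, Anxa7 and Anxa11), Anxa7 rose in WT, by 0.22 (adjusted p 0.0488), and none was called in KO, where none had an unadjusted p under 0.05. Of 4 other S100 genes in these tables, S100a16 rose in WT by 0.82 (SE 0.10, adjusted p 0.000289) and in KO by 1.18 (SE 0.12, adjusted p 0.000103). S100b, a marker of astrocytes, had a difference of -0.22 (adjusted p 0.0562) in WT and of -0.04 in KO. Of the other galectins listed, Lgals9 (1.06, adjusted p 0.0498) and Lgals8 (0.36) rose in WT. In KO, Lgals8 rose by 0.38, and Lgals9 was at 0.89 and not called (adjusted p 0.074). The galectin-related Lgalsl was not called in either genotype. Lgals3bp, a glycoprotein that galectin-3 binds and not a galectin itself, rose by 0.73 in WT and by 1.07 in KO. Pmp22, the name gene of the Emp1 family, rose by 0.48 in WT and 0.55 in KO, while Emp2 was at -0.05 and 0.21 and was not called.

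Receptors and partners were counted from a list of 22, of which 15 were listed in WT and 16 in KO. In each genotype 5 were called, all higher. Cd44, the hyaluronan receptor, rose by 2.36 (SE 0.16, adjusted p 5.7e-06) in WT and by 1.63 (SE 0.30, adjusted p 0.00504) in KO. Ptprc (CD45), a leukocyte phosphatase that carries galectin-1 ligands, rose by 1.00 and 1.06. Plat, the tissue plasminogen activator that Anxa2 with S100a10 binds, rose by 0.46 (adjusted p 0.0107) and 0.50 (adjusted p 0.0111). The further calls were Ahnak2 (0.95) and Itgb1 (0.23) in WT, and Tlr4 (0.66) and Cacybp, an S100a6-binding protein (0.54), in KO. Not called but of like size were Itgb1 in KO (0.24, adjusted p 0.114) and Tlr4 in WT (0.62, adjusted p 0.0805). Cacybp was at 0.28 in WT and Ahnak2 at -0.12 in KO, neither called. Plat, Itgb1 and Cacybp were named after their values were seen. The formyl peptide receptors of Anxa1 were not listed. Of 21 listed genes of plasma membrane repair, Cavin1 (0.74) and Myof (0.64) rose and Otof (-1.05) fell in WT, and in KO the 1 call was Otof (-1.19). These are 3 of 21 and 1 of 21, beside the 10.6% and 10% of all genes. In KO, Cavin1 was at 0.06 (adjusted p 0.844) and Myof at 0.34 (adjusted p 0.291). The list medians were 0.02 and 0.04, near those of all genes.

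**Figure D3:**
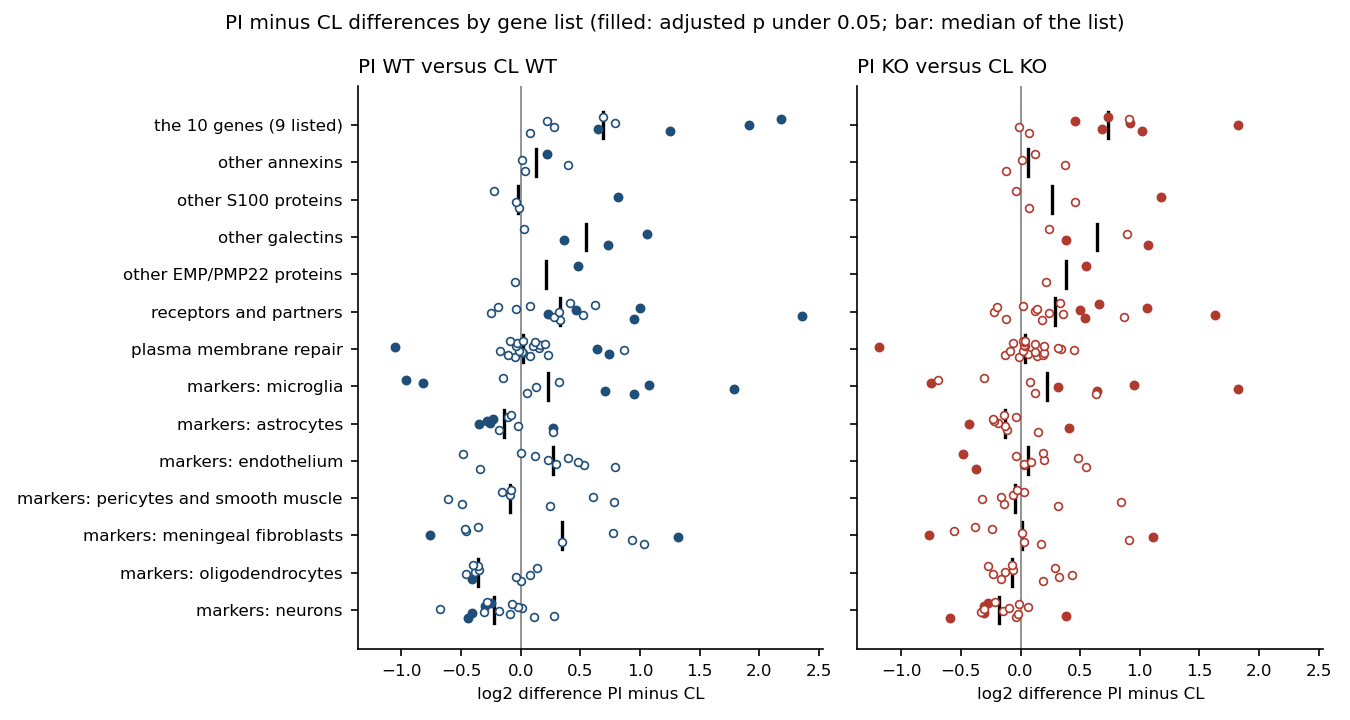
Log2 difference PI minus CL (horizontal axis) of each listed gene, by gene list, in WT (left) and KO (right); filled points have an adjusted p under 0.05 and black bars are list medians. The set of 9 has its median at 0.69 and 0.73, and the 10 microglial markers at 0.23 and 0.22 with genes on both sides of 0.

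Markers of some cell types also differed between PI and CL cortex, some higher and some lower in PI, while other marker lists held no call. Their part in the differences of the 9 genes was not tested. Sums here and in the next paragraph are of the deposited, drawn-in values, so the true ranges are not known and may be wider. The summed level of the 9 genes spanned 56.4 to 63.9 CPM in CL WT against 87.1 to 98.8 CPM in PI WT libraries, and 66.7 to 74.2 CPM against 89.5 to 111 CPM in KO. The 10 microglial markers summed to 182 to 197 CPM in CL WT and 205 to 236 in PI WT, and to 195 to 215 and 226 to 276 in KO. Within that list 4 rose and 2 fell in WT (Fcrls 1.79, Itgam 1.08 and Aif1 0.95, against Siglech -0.96 and P2ry12 -0.82), and 4 rose and 1 fell in KO. Astrocyte markers summed to 7860 to 8260 CPM in CL WT and 6840 to 7260 in PI WT, with 1 called higher (Aqp4, 0.27) and 4 lower, and in KO to 7870 to 8380 and 6640 to 7340 CPM, with 1 called in each direction. Slc1a2 alone made up most of the astrocyte sum in WT, with trimmed means of 12.71 log2 CPM in CL and 12.47 in PI. Neuronal markers summed to 9970 to 10600 and 8560 to 9380 CPM in WT, with 4 of 14 called lower, and to 9920 to 10300 and 8300 to 9080 CPM in KO, with 4 called lower and 1 (Gad2, 0.38) higher.

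Of the 9 meningeal fibroblast markers listed, Dcn rose (1.32 in WT, 1.11 in KO) and Igf2 fell (-0.76 and -0.77), and their sum in WT ranged over 54.3 to 66.6 CPM on the CL side and over 61.9 to 72.0 CPM on the PI side, and in KO over 60.6 to 79.2 and 66.0 to 76.7 CPM. Of 13 neutrophil and monocyte markers 1 was listed in each of these tables and not called, at 1.35 to 1.69 CPM in CL WT and 1.33 to 1.61 in PI WT. The unlisted markers have no PI minus CL value. With S100a8 and S100a9, 3 of the 13 were listed between PI KO and PI WT. They summed to 3.79 to 5.75 CPM in PI WT and 5.21 to 11.3 in PI KO. Pericyte markers (8 of 10 listed) had no call. Oligodendrocyte markers summed to 2260 to 2470 CPM in CL WT and 1600 to 2230 in PI WT, with a median difference of -0.36, 2 of 10 above 0 and 1 called lower (Cnp, -0.41). In KO they summed to 1800 to 2450 and 1770 to 1990 CPM, with a median of -0.07 and no call. Endothelial markers had no call in WT, where 8 of 10 were above 0 with a median of 0.27 and sums of 157 to 219 CPM in CL and 156 to 225 in PI. In KO 7 of 10 were above 0 with a median of 0.06, 2 were called lower (Slco1a4, -0.48, and Abcb1a, -0.37) and none higher, and the sums were 179 to 208 and 175 to 190 CPM. Haemoglobin and other red cell genes (4 of 5 listed) were not called, and their sum ranged from 12.3 to 52.1 CPM in CL WT and from 30.0 to 50.4 in PI WT.

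The second question was whether loss of ciRS-7 changed these genes within a side. None of the 10 genes in PI cortex and none of the 8 in CL cortex passed the moderated trimmed-mean test, where 0.0208% and 0.0279% of all genes did. An unadjusted p under 0.05 was reached by 0 genes in PI and by 1 in CL, Anxa5. Limma on the drawn-in values called 2 in PI (S100a6, adjusted p 0.039, and Lgals1, 0.0217) and 2 in CL (Anxa5, 0.00782, and S100a6, 0.0184). Over all genes that fit called 16.5% in PI and 16.1% in CL. The point estimates were above 0 in KO for 9 of 10 genes in PI, with a median of 0.12, and for 7 of 8 in CL, with a median of 0.30. Over all genes 48.5% and 49.2% were above 0.

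In PI cortex the widest difference was that of Lgals1, 0.46 (95% interval -0.02 to 0.95), with 1.80, 1.94 and 2.38 log2 CPM in WT and 2.31, 2.52 and 2.67 in KO. Anxa1 differed by 0.42 (-0.14 to 0.99) and S100a6 by 0.34 (-0.07 to 0.75). S100a11 was the exception in sign, at -0.36 (-0.88 to 0.16). It was also the 1 gene of 10 whose deposited values did not overlap (14.1% of all genes), with WT libraries from 1.65 to 1.75 and KO libraries from 1.04 to 1.64. Its recovered inner values did overlap, since the highest of KO was 1.71 and the lowest of WT was 1.64. Lgals3 was at 0.31, 1.10 and 1.56 log2 CPM in WT and 0.16, 1.01 and 1.87 in KO, a difference of 0.02 with an interval of -1.21 to 1.26, so that a change of 2-fold in either direction was not detectable. Emp1 (0.03, -0.55 to 0.61), Anxa5 (0.01, -0.25 to 0.28), Anxa2 (0.10, -0.37 to 0.57), Anxa3 (0.17, -0.14 to 0.48) and S100a10 (0.13, -0.17 to 0.44) had intervals on both sides of 0.

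In CL cortex the deposited values did not overlap for 2 of 8 genes (13.5% of all genes). Anxa5 was at 4.10, 4.25 and 4.34 log2 CPM in WT and 4.38, 4.53 and 4.70 in KO, a difference of 0.31 (95% interval 0.04 to 0.57, adjusted p 0.825). S100a6 was at 2.68, 2.96 and 3.00 in WT and 3.04, 3.20 and 3.30 in KO, a difference of 0.30 (-0.03 to 0.63). Over the 4 recovered inner values the groups of Anxa5 overlapped, with the lowest KO value at 4.34 and the highest WT value at 4.35, and those of S100a6 met at 3.01 and 3.00. Anxa1 (0.44, -0.22 to 1.10), Anxa2 (0.33, -0.20 to 0.86), Lgals1 (0.33, -0.35 to 1.01), Anxa3 (0.15, -0.17 to 0.46) and Emp1 (0.12, -0.60 to 0.84) overlapped, and S100a10 was the 1 gene below 0 (-0.10, -0.32 to 0.13). The 10 meningeal fibroblast markers were also above 0 in CL KO, 10 of 10 with a median of 0.39, as were 10 of 10 microglial markers with a median of 0.21. Endothelial markers were above 0 in 8 of 10 (median 0.13) and oligodendrocyte markers in 0 of 10 (median -0.16). In PI cortex, the numbers above 0 in KO were 8 of 10 for microglial (median 0.19) and 8 of 9 for meningeal fibroblast markers (0.11). There they were 8 of 10 for oligodendrocyte (0.08) and 3 of 10 for endothelial markers (-0.04). None of these markers was called on either side, and their part in the differences was not tested.

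**Figure D4:**
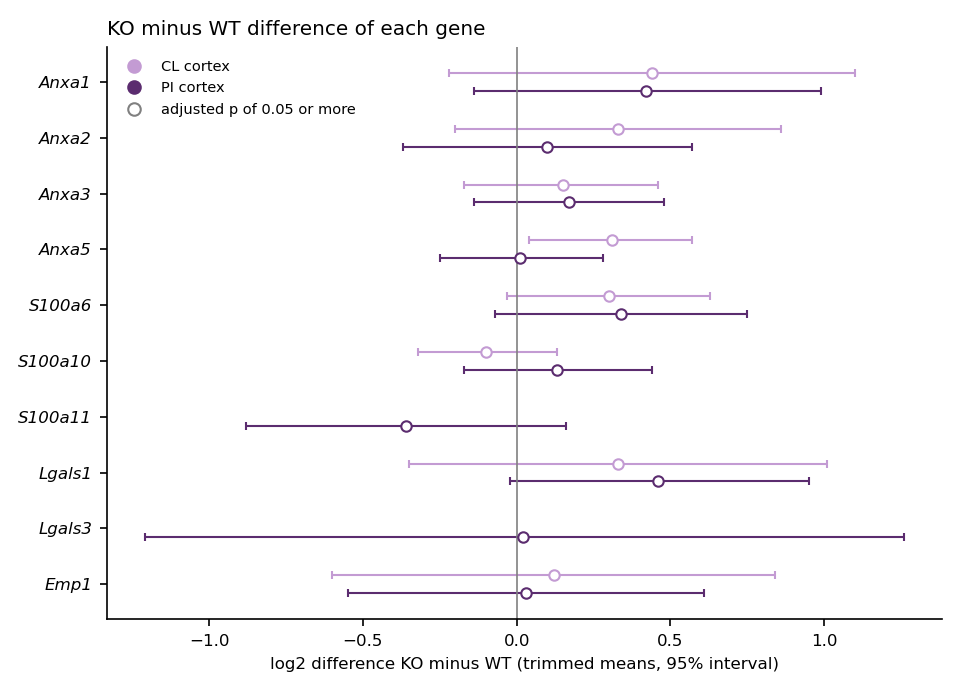
Log2 difference KO minus WT (horizontal axis) of each gene with its 95% interval, in CL and PI cortex; open points have an adjusted p of 0.05 or more. Of the intervals, that of Anxa5 in CL cortex (0.04 to 0.57) lies above 0 and all others include 0.

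The inflammatory S100 genes of neutrophils, S100a8 and S100a9, were listed in the PI KO against PI WT table and in no other, with differences of 1.16 (unadjusted p 0.0268, adjusted p 0.854) and 0.77 (adjusted p 0.877). S100a16 differed by 0.30 there (unadjusted p 0.00489, adjusted p 0.768) and by -0.06 in CL cortex. No gene of the related lists was called in a comparison of KO with WT.

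The third question was whether the PI minus CL difference itself depended on genotype. None of the 9 genes passed the test of that difference, and 0 of 14211 genes did (0%), with 1 of the 9 and 646 of all genes at an unadjusted p under 0.05. That gene was S100a11, whose PI minus CL difference in KO minus that in WT was -1.26 (SE 0.48, 95% interval -2.28 to -0.25, unadjusted p 0.017, adjusted p 0.992). The estimate stayed between -1.44 and -1.04 when each of the 24 libraries was left out, and it rests on CL WT values of a few reads. S100a11 was also listed only in tables that hold PI libraries. Limma on the drawn-in values called 2 of the 9 genes, S100a11 (adjusted p 0.00311) and Anxa5 (-0.29, adjusted p 0.0397), and the same 2 with the animal as a block (0.00622 and 0.0471). Over all genes that fit called 13.7%, and 15.6% with the block. The other estimates ran from -0.29 for Anxa5 to 0.24 for S100a10, with intervals that included 0: Emp1 -0.08 (-1.01 to 0.84), Anxa2 -0.23 (-0.97 to 0.51), Anxa3 0.03 (-0.40 to 0.46), S100a6 0.04 (-0.51 to 0.58), Lgals1 0.13 (-0.70 to 0.97) and Anxa1 -0.01 (-0.89 to 0.88). Among relatives, S100a16 differed by 0.36 (unadjusted p 0.0314, adjusted p 0.992) and Ahnak2 by -1.07 (unadjusted p 0.011, adjusted p 0.992). The genes called between PI and CL were all called higher in PI. None was called between KO and WT of a side by the trimmed-mean test, where listed. The intervals are wide, so an equal PI minus CL difference in both genotypes is not shown.

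Within a group, several of the genes placed the same library at an end. PI KO library 5 was among the highest 2 of its group in 7 of 9 genes and among the lowest 2 in 0, where all genes put it there in 32.0% and 33.2%. PI KO library 6 was among the lowest 2 in 6 of 9 (38.1% of all genes) and among the highest 2 in 0, and PI KO library 4 was among the lowest 2 in 6 of 9 (34.0%) and among the highest 2 in 3. CL KO library 3 was high in 7 of 9 (31.5% of all genes) and CL WT library 5 in 6 of 9 (33.0%). CL WT library 1 (35.4%), PI WT library 4 and CL KO library 6 were low in 6 of 9. The last pair are the libraries at the ends most often over all genes, with PI WT library 4 low in 40.1% and CL KO library 6 in 44.7%. An animal did not always keep its place across sides. CL KO library 6 was low like PI KO library 6, and CL KO library 5 was high in 5 of 9. By contrast, PI WT library 5 was high in 3 and low in 4 of 9, and PI WT library 1 was high in 3 and low in 1. The libraries were named for their extreme counts, which are a description and were not tested.

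**Figure D5:**
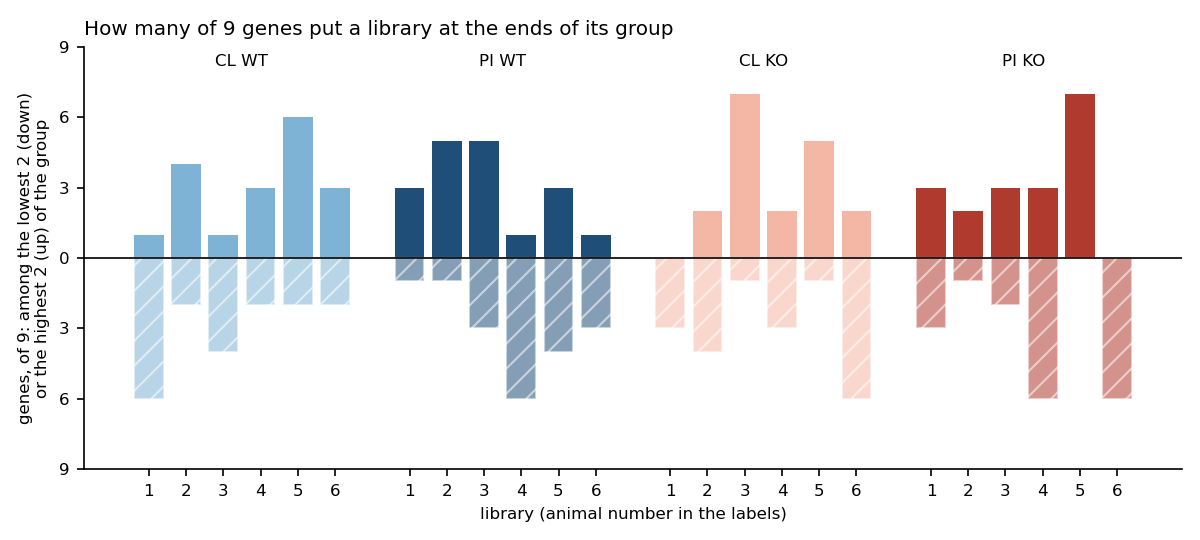
Number of the 9 genes (vertical axis) that put each library (horizontal axis, animal number within a group) among the highest 2 of its group (bars up) or the lowest 2 (hatched bars down). PI KO library 5 has 7 up and 0 down, and PI KO library 6 has 0 up and 6 down.

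The genes whose pattern was most like the mean of the set were named by the highest mean Pearson r over the 12 libraries of each PI against CL table, among 13509 genes. They were Arpc1b (0.973), a subunit of the actin-nucleating ARP2/3 complex, the translation factors Eif4a1 (0.969) and Eif1a (0.969), Met (0.969), the hepatocyte growth factor receptor, and Rack1 (0.968), a ribosomal scaffold. All 5 passed the test in both genotypes, with Arpc1b higher in PI by 1.27 in WT and 1.26 in KO, and Eif4a1 by 0.24 and 0.29. The mean of the set itself differed between PI and CL in these libraries. A high r with it largely fixes that outcome, so the calls add no separate support. With each group centred on its mean, so that the difference between PI and CL no longer counts, r was 0.74 for Arpc1b, 0.78 for Eif4a1, 0.71 for Met, 0.59 for Eif1a and 0.76 for Rack1. Spp1 (0.75), osteopontin, and Col3a1 (0.73), a fibroblast collagen, then joined the leading 5 in place of Met and Eif1a. All r were taken over the deposited, drawn-in values and not the recovered ones. The libraries of a table share their scaling, and the values are given as a description.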

How the data were processed

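Cortex RNA of 24 libraries (CORALL total RNA kit after ribosomal RNA depletion, per the labels' protocols) was deposited as 4 tables of log2 CPM, made by the authors, each scaled on its own. The build is mm10, per the submitters' processing notes; aligner, counter, strand setting, use of molecular identifiers and scaling are not given in the sources used here. The values were checked: 78.7 to 89.0% of low inner values came out as whole reads (within 0.03 read) once the pull to the group quartiles (0.75 of the second plus 0.25 of the third value, log scale) was undone, against 10.7 to 13.5% as deposited. A floor of 3 reads was 0.286 to 0.569 CPM, for counting error only.

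Groups were compared by a moderated trimmed-mean test (4 inner values, Winsorized error, 6 degrees of freedom, 12 for the genotype dependence, squeezeVar of limma 3.58.1 in R 4.3.3 with a mean trend, Benjamini-Hochberg over all genes), tested on simulated data. No table was filtered further. The members, the 6 gene lists, the 10 marker lists and the tests were chosen with earlier results of these data known. Named beyond the 10 genes were the called list genes with the largest differences, up to 3 in each direction and list, and the 5 most similar genes; Anxa4, Anxa6, Anxa11, S100b, S100a8, S100a9, Emp2, Lgalsl, Spp1, Col3a1, Plat, Itgb1 and Cacybp were named after their values were seen. PI and CL libraries of a number come from the same animal, per the titles; the correlation of their deviations was -0.14 to 0.331 in WT and -0.009 to 0.166 in KO. Alternatives were limma on the deposited values with and without that replicate block, no mean trend, centring on the median gene, a mean log2 CPM of at least 1, log2(CPM + 1), and, chosen after seeing the data, leaving out each library. Positions are from GENCODE M21 (GRCm38, the same assembly as mm10) and sequences from RefSeq.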

Additional observations from a re-analysis of the deposited data

How the results depend on the processing

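Of the 10 genes, Emp1 kept its call in both genotypes, Anxa2 and S100a11 theirs in WT, and Anxa3 and S100a6 theirs in KO, without each library in turn, with no mean trend, centred on the median gene, on the log2(CPM + 1) scale and with a mean log2 CPM of at least 1, except that this minimum removes S100a11 from the PI against CL tables, so that its WT call has no value there and the 4 WT calls then include S100a6. With no mean trend in the prior variance 1015 genes passed in WT and 739 in KO, 3 of the 9 members in KO; Anxa3 in WT (adjusted p 0.0609) and Anxa2, S100a10 and Lgals1 in KO (0.0745, 0.09 and 0.0509) lost their calls; the cause was not tested. Centring each group on its median gene changed the share of calls that were higher from 49.1% to 37.7% in WT and from 50.8% to 36.7% in KO, and shifted the median of all genes to -0.02 and -0.04. Limma on the deposited values, whose spread is too small by their construction, called 6459 genes and 8 members in WT, 6666 genes in KO, 2388 genes and 2 members between PI KO and PI WT, 2311 and 2 between CL KO and CL WT, and 1940 and 2 for the dependence on genotype. With the replicate block, which pairs the libraries of an animal in the PI against CL fits and only shares a number between genotypes, these were 6614 and 8, 6759, 1800 and 2, 1868 and 3, and 2216 and 2. Each animal's CL library matched its own PI library best in 4 of 6 WT and 2 of 6 KO animals. Leaving out a library gave 1117 to 1468 genes and 4 to 4 members in WT, 900 to 1602 and 3 to 6 in KO (900 without CL KO library 5, 3 members without PI KO library 2), 3 to 4 genes in PI, 3 to 7 in CL (7 without CL KO library 1), and 0 to 0 members in these and for the dependence on genotype, where 0 to 0 genes passed. Signs changed only for 13 estimates near 0 that were not called: Anxa1 (-0.15 to 0.21 in WT, -0.01 to 0.17 in KO) and Anxa5 in KO (-0.08 to 0.09) between PI and CL; Anxa2 (-0.03 to 0.26), Anxa5 (-0.04 to 0.11), Lgals3 (-0.31 to 0.36) and Emp1 (-0.15 to 0.21) in PI, and Emp1 in CL (-0.007 to 0.33), between genotypes; and Anxa1 (-0.13 to 0.23), Anxa3 (-0.06 to 0.12), S100a6 (-0.13 to 0.13), Lgals1 (-0.05 to 0.28) and Emp1 (-0.29 to 0.10) for the dependence on genotype, where Anxa1 was also 0.00 on the log2(CPM + 1) scale. Depth limits S100a11 in CL WT and Lgals3 most.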
